A study of Conyza sumatrensis with 22 samples.

Results

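The 8 treated leaf libraries of the sensitive populations S and T of Conyza sumatrensis (Sumatran fleabane, an annual broadleaved weed) were compared with each other. They were chosen by their labels, as the libraries of S (4) and T (4) taken 5 h after spraying with 2,4-D (1005 g active ingredient per hectare), out of 22 libraries of polyA RNA in all. Further libraries served to place the differences: untreated S (3) and untreated T (4), taken before spraying, and treated R (3) and untreated R (4) of a population labelled resistant. Whether replicate libraries are separate plants is not in the labels, and p-values therefore reflect only the scatter of these libraries, which may be partly technical. Each population also stands for its own seed source and plants, which cannot be told apart from its genotype in these data.

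2,4-D is a synthetic auxin. In plants, auxin joins the TIR1/AFB receptors with Aux/IAA repressor proteins, which are then degraded, and this frees the ARF transcription factors that the repressors hold back. Transcripts that auxin typically raises include those of Aux/IAA repressors, of GH3 enzymes that join auxin to amino acids, of SAUR proteins of cell growth, and of enzymes that make ethylene and abscisic acid. The files give each gene model a letter and a running number and pair none with a gene name, so what the gene models described here encode is not given. For the same reason the leaf label was not checked against marker genes, and no gene list by function was used.

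The treated libraries held 20.4 to 23.5 M assigned reads in S and 20.1 to 21.5 M in T. Gene models with at least 1 count averaged 23809.8 ± 390 in treated S and 24323.5 ± 219 in treated T (SD, n = 4 each; 2-sided exact permutation p = 0.0857, 0.343 adjusted over 4 library values, with 0.0286 the smallest p that 4 against 4 libraries allow). The share of reads on the 10 most counted gene models was 6.49 ± 1.3% in treated S and 6.94 ± 0.75% in treated T (exact permutation p = 0.571). The share on transcripts whose reads were divided between models was 35.1% to 37.7% in treated S and 26.1% to 36.5% in treated T (exact permutation p = 0.171). In treated T library 1 a single gene model took 2.49% of the reads, against 0.947% to 1.49% for the most counted gene model of the other 7 libraries. In these bulk leaf samples, fewer cells of a type and less RNA per cell cannot be told apart.

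Population was the main axis among the treated libraries. Over 22627 gene models tested, the first principal component of log2 CPM (reads per 1e6 assigned reads) held 65.5% of the variance and set the 4 S libraries, at -102 to -97.5, apart from the 4 T libraries, at 95.9 to 105. The second held 12.8% and ran within both populations. On it treated S library 4 lay at -74.3, against 5.86 to 32.8 for the other S libraries, and the T libraries lay between -48.3 and 69. Across gene models, the median correlation of log2 CPM was 0.965 within treated S, 0.969 within treated T and 0.880 between treated S and treated T. The median SD of log2 CPM per gene model was 0.33 in treated S and 0.31 in treated T, so the replicates of both populations were about equally scattered.

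**Figure D1:**
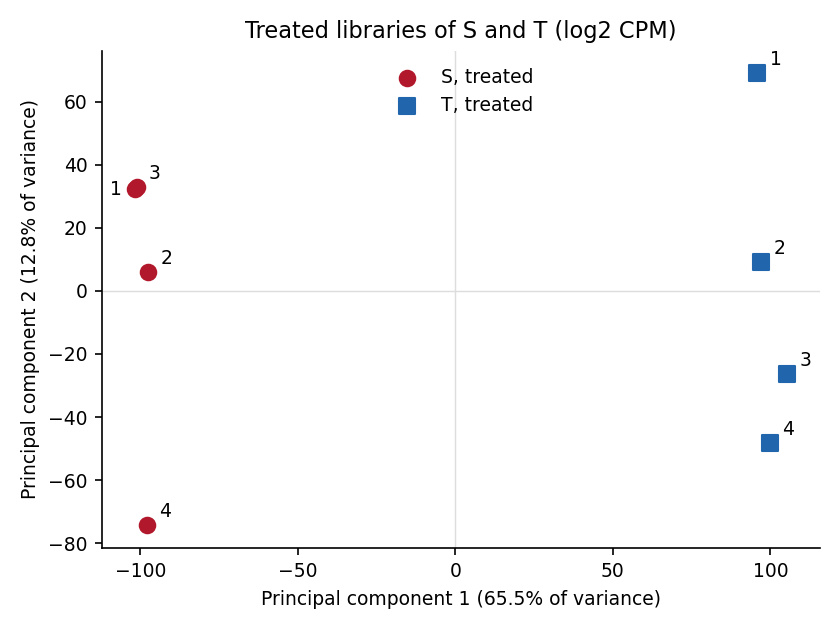
The 8 treated libraries on the first (65.5% of variance) and second (12.8%) principal components of log2 CPM, with 1 point per library and its replicate number beside it (circles S, squares T). The populations lie at opposite ends of the first component, and S library 4 lies lowest on the second, at -74.3.

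After 2,4-D, 3722 gene models were higher in S than in T and 4289 were lower, 8011 of the 22627 tested, or 35.4% (edgeR quasi-likelihood test, Benjamini-Hochberg adjusted p under 0.05). Higher ones made up 16.4% of those tested and lower ones 19%. The lower ones had a median log2 fold change of -1.40 and the higher ones one of 1.13. With gene models at 0 counts in 1 population set to their bound against a floor of 3 counts, these medians were -1.39 and 1.13. The lower ones were also less abundant, at a median average log2 CPM of 2.93 against 3.72. Called differences were larger among less abundant gene models, so the median fold changes do not compare the directions at equal abundance. A fitted difference of at least 2-fold was reached by 2058 of the higher and 2664 of the lower gene models, and one of at least 16-fold by 496 and 812. When the difference itself was tested against 2-fold, 1017 gene models were higher (4.49%) and 1462 lower in S (6.46%), 11% of those tested together. In 2905 higher and 3471 lower gene models the libraries of S and T did not overlap at all, which is 12.8% and 15.3% of those tested, or 28.2% together.

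**Figure D2:**
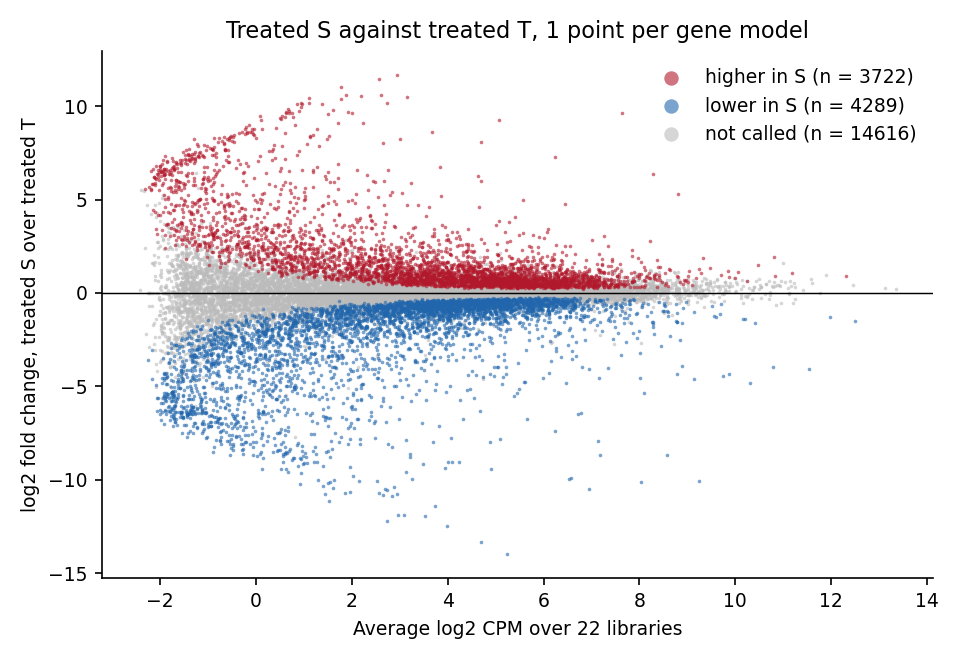
Log2 fold change of treated S over treated T (vertical axis) against average log2 CPM over the 22 libraries (horizontal axis), 1 point per gene model. Red points are the 3722 gene models called higher in S, blue points the 4289 called lower, and grey points those not called.

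The 2 directions differed in how abundant their gene models were. In the lowest quartile by average log2 CPM, 959 gene models were higher in S and 1355 lower, so that 58.6% of the calls were lower in S. In the highest quartile 937 were higher and 625 lower, and 40.0% of the calls were lower in S. With upper-quartile factors in place of TMM these shares were 59.7% and 47.9%. The median size of a called difference was 3.6 on the log2 scale in the lowest quartile and 0.67 in the highest. Coding length showed a similar split. Among the shortest quartile (201 to 816 bases) 63.1% of the calls were lower in S, against 47.0% among the longest quartile (2049 to 24915 bases). When each library's trend on coding length was removed, the shares were 50.8% and 49.5%. That removal evens out the split by length by its own construction. The abundance split was then 57.0% and 37.9%.

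**Figure D3:**
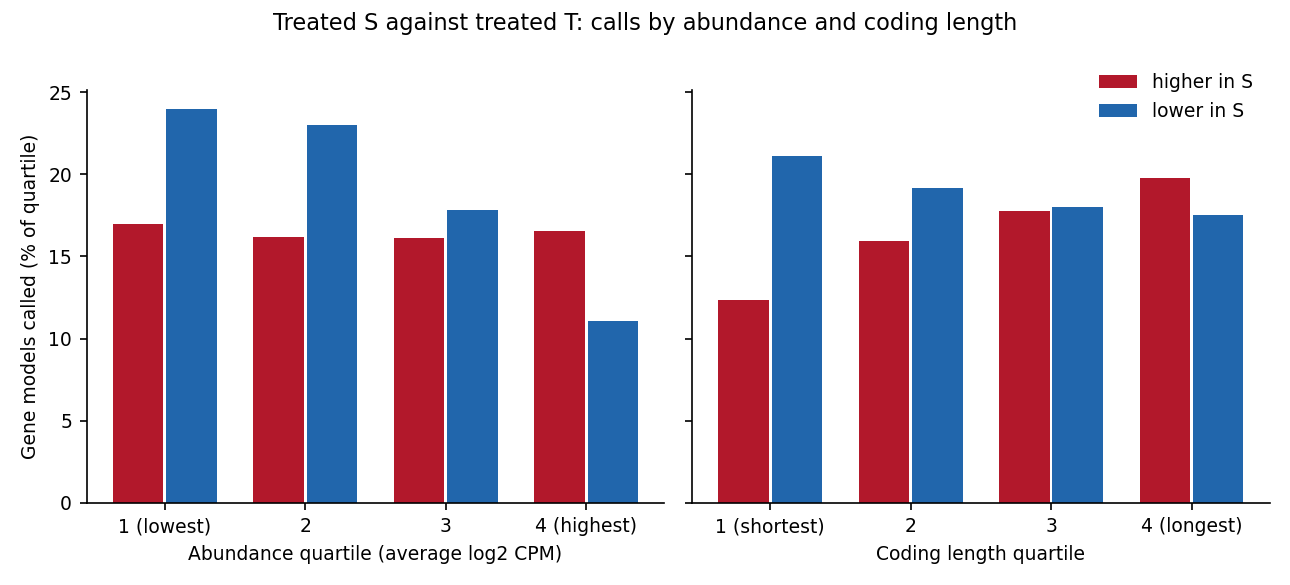
Share of gene models called higher (red) or lower (blue) in treated S than in treated T, in percent of each quartile of the tested gene models, by average log2 CPM (left) and by coding length (right). Calls lower in S made up 24% of the least abundant quartile and 11% of the most abundant one, while calls higher in S stayed between 16.1% and 17%.

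The called gene models also differed in the share of the reads they took. Those higher in S took 18.3 ± 0.486% of the reads in treated S and 10.2 ± 0.345% in treated T (SD, n = 4 each). Those lower in S took 6.91 ± 0.298% in treated S and 18.2 ± 1.2% in treated T. These libraries chose the gene models, so the size of the gap is a description. The untreated libraries did not enter the difference that chose the gene models, although they entered the filter and the estimate of spread. In them the higher ones took 17.7 ± 0.403% in S (n = 3) and 12.5 ± 0.426% in T (n = 4). The lower ones took 7.31 ± 0.562% in untreated S and 13.8 ± 0.972% in untreated T. The untreated libraries of S and T did not overlap in either share. Nor did the treated ones, but there a gap was built into the choice of the gene models.

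Gene model g4156, with a coding length of 1764 bases, had the largest fold change upward in S among gene models of at least 1 average log2 CPM whose libraries did not overlap. It stood at 19.8, 36.2, 4.89 and 17.3 CPM in treated S libraries 1 to 4 and held 0 counts in all 4 treated T libraries. The treated S mean of g4156 was 19.5 ± 12.9 CPM (SD, n = 4), at least 545-fold higher than a floor of 3 counts over treated T (edgeR adjusted p = 3.31e-05). Every S library held reads of g4156 and no T library did, before spraying as well: untreated S stood at 40.1, 12.2 and 36 CPM and untreated T at 0. Treated R held 2 counts of g4156 over 3 libraries. Such a floor reflects counting error alone, as reads can be copies of 1 molecule.

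In the other direction g31748 (coding length 1416 bases) held 0 counts in all 4 treated S libraries and stood at 75, 118, 103 and 85.5 CPM in treated T. The treated T mean was 95.3 ± 18.9 CPM (n = 4), and S was at least 2562-fold lower, with its floor of 3 counts (edgeR adjusted p = 5.67e-10). Untreated S held 6 counts of g31748, all in library 1, and untreated T stood at 25.2 to 56.3 CPM. Treated R resembled T in holding the transcript, at 66.1, 50.2 and 38.9 CPM. Reads of g31748 were divided between gene models in 3 of the 4 treated T libraries, the only treated S or T libraries that held any. Its values are therefore uncertain by an amount the files do not give.

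Among gene models with at least a 2-fold difference and no overlap, g14756 (1833 bases) was the most abundant one higher in S. It stood at 2618, 1563, 1178 and 3998 CPM in treated S and at 741, 671, 540 and 503 CPM in treated T. The lowest S library thus lay above the highest T library, although the S libraries scattered more widely than those of T. Treated S over treated T came to 1.93 on the log2 scale (SE 0.53, edgeR adjusted p = 0.00823). Untreated libraries gave 2191 ± 411 CPM in S (n = 3) and 600.3 ± 389 CPM in T (n = 4), with a log2 fold change of 1.87 (SE 0.56, edgeR adjusted p = 0.0148). Treated R stood at 2221, 2538 and 3336 CPM, within the range of treated S and above all treated T libraries.

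The most abundant gene model lower in S was g10371 (1494 bases). It stood at 3661, 3344, 2662 and 3566 CPM in treated S and at 7646, 9252, 10478 and 9862 CPM in treated T. All S libraries lay close together and below all T libraries. Its log2 fold change was -1.49 (SE 0.23, edgeR adjusted p = 4.29e-05) after treatment and -1.11 (SE 0.25, edgeR adjusted p = 0.00199) before. Treated R lay between them, at 5782, 6219 and 5855 CPM. Reads of g14756 were divided between gene models in 7 of the 8 treated libraries and those of g10371 in all 8, so both are uncertain where near-identical copies exist.

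**Figure D4:**
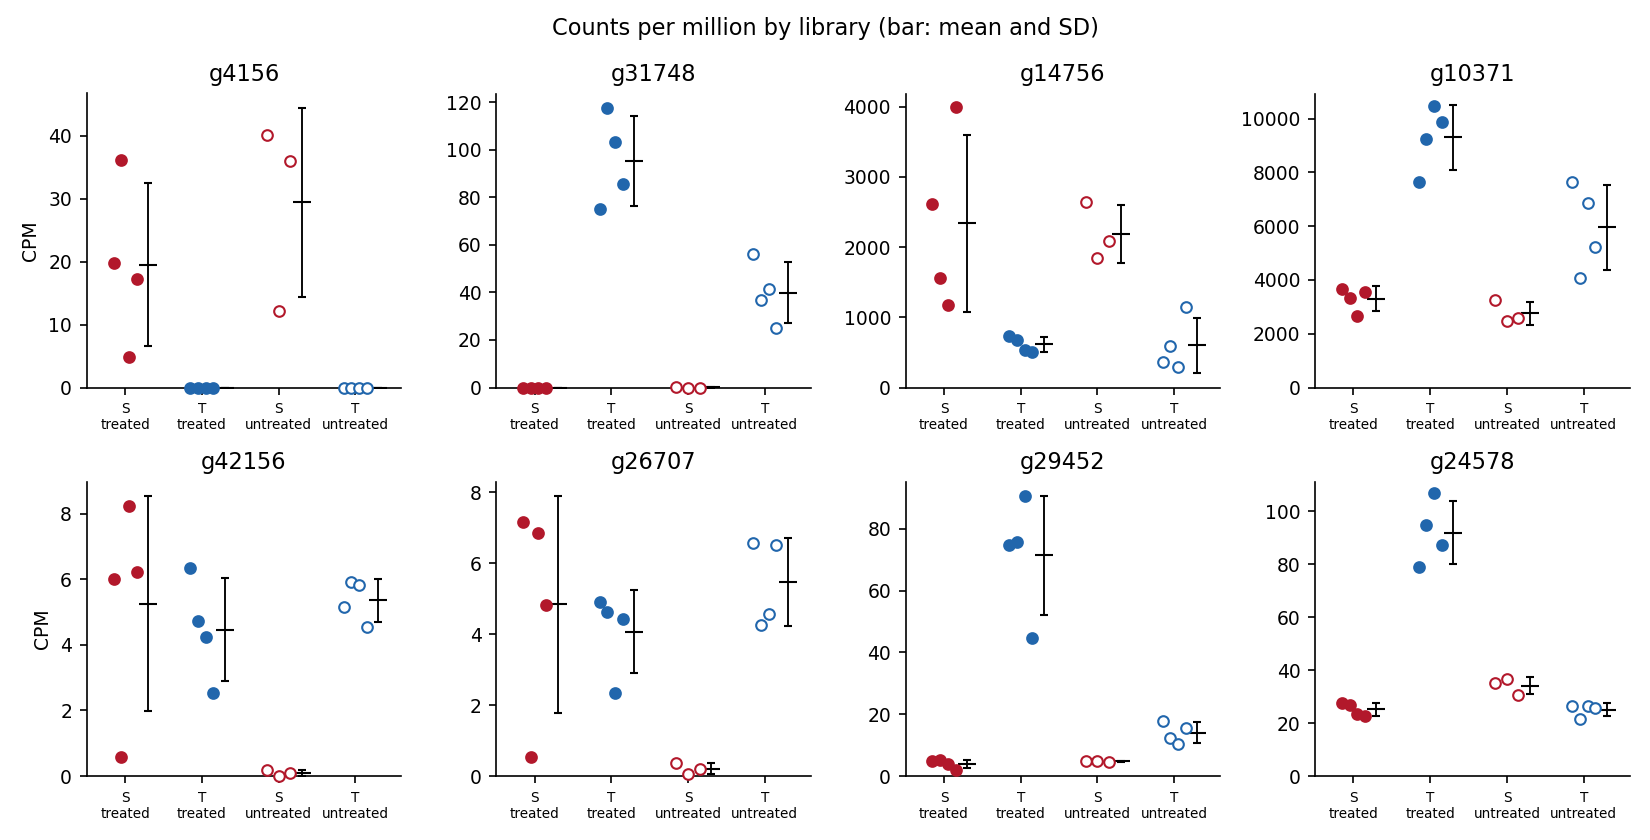
CPM of 8 gene models in each library (points), with the mean and SD of each group (bar, n = 4, or 3 for untreated S), on linear axes from 0. Filled points are treated and open points untreated libraries, red for S and blue for T. The upper row shows g4156, g31748, g14756 and g10371, whose treated S and T libraries do not overlap. The lower row shows g42156 and g26707, at no more than 0.368 CPM in untreated S, and g29452 and g24578, highest in treated T.

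Most differences between treated S and treated T were also measured between the untreated populations, in other libraries. Before spraying, 3399 gene models were higher (15%) and 3816 lower in S (16.9%), 31.9% of those tested (edgeR adjusted p under 0.05). Of the 8011 gene models called after treatment, 4857 (60.6%) were also called before it in the same direction, and 19 in the opposite direction. These 4857 made up 67.3% of the 7215 called before. Among differences called beyond 2-fold after treatment, 2142 of 2479 (86.4%) were called before in the same direction, and 0 in the opposite one. Across all tested gene models, the log2 fold changes of S over T after and before treatment correlated at 0.86 (Pearson) and 0.74 (Spearman). These points share the 2 populations and the abundance of each gene model, and gene models are not independent replicates.

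A group of 3135 gene models was called between treated S and treated T and not between the untreated populations, 1577 higher and 1558 lower in S. Their untreated log2 fold changes had the same sign in 2686 (85.7%), against 17399 of all 22627 tested gene models (76.9%). The median log2 fold change of the higher ones was 0.87 after and 0.35 before treatment, and that of the lower ones -0.95 after and -0.37 before. The converse group, called before and not after, held 2339 gene models, of which 1913 (81.8%) kept their sign, against the same 76.9%. Their median absolute log2 fold change was 0.29 after and 0.83 before. Each group was chosen for being larger on the side where it was called, so these medians describe the groups and do not show that a difference widened or narrowed. The edgeR test of the change of the difference, adjusted over all 22627 tested gene models, passed in 7 of the 3135.

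**Figure D5:**
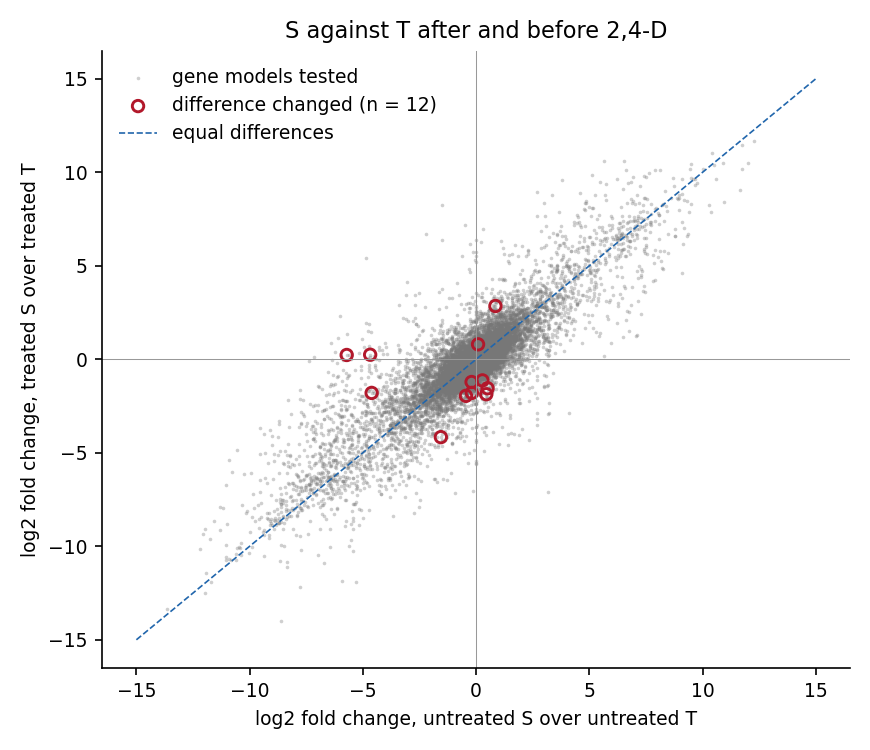
Log2 fold change of S over T after treatment (vertical axis) against that before treatment (horizontal axis), 1 grey point per tested gene model (n = 22627). The dashed line marks equal differences. Red circles are the 12 gene models whose difference between S and T changed by the edgeR test.

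The difference between S and T changed at 12 gene models, 5 with a positive (0.0221%) and 7 with a negative change (0.0309%), 0.053% of those tested (edgeR adjusted p under 0.05). An unadjusted p under 0.05 was reached by 2732, and DESeq2 called 365. Of the 12, 10 were called between treated S and treated T and 5 between the untreated populations. In 6 of them the difference kept its sign and was larger after treatment, in 1 it was smaller, and in 5 the fitted values had opposite signs. In none of these 5 was the difference called on both sides of treatment. Leaving out single libraries moved the count: it was 28 and 20 without treated S libraries 2 and 3, and 2 without treated T library 3. It was 24 and 5 without untreated S libraries 1 and 2, and 5, 4 and 7 without untreated T libraries 2, 3 and 4. With only the S and T libraries in the model it was 1.

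Gene model g29452 (1392 bases) had the largest negative change. It stood at 4.75, 5.15, 3.88 and 2.05 CPM in treated S and at 74.7, 75.9, 90.5 and 44.6 CPM in treated T. In the untreated libraries it stood at 4.78, 4.88 and 4.68 CPM in S and at 17.9, 12.4, 10.4 and 15.5 CPM in T. The treated S libraries overlapped the untreated ones, while all treated T libraries lay above all untreated T libraries. The log2 fold change of S over T was -4.16 after treatment and -1.56 before, a change of -2.61 (SE 0.35, edgeR adjusted p = 0.00507). With only the S and T libraries in the model the change was -2.62 and not called (edgeR adjusted p = 0.0514). In R, whose libraries entered neither difference but shared the filter and the estimate of spread, g29452 stood at 28.7 to 32.3 CPM treated and at 7.14 to 10.5 CPM untreated.

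Gene model g24578 (1260 bases, 3 transcript models) differed between treated S and treated T and did not pass the test before treatment. Treated S stood at 27.8, 26.7, 23.4 and 22.8 CPM and treated T at 78.8, 94.9, 107 and 87.3 CPM, with no overlap. Untreated S stood at 35.2, 36.5 and 30.7 CPM and untreated T at 26.6, 21.4, 26.3 and 25.7 CPM, also with no overlap but with S the higher. Treated R stood at 126, 62.6 and 53.5 CPM and untreated R at 31.4 to 43.3 CPM. With the R libraries fitted alone that rise was not called (edgeR adjusted p = 0.0639). The log2 fold change of S over T was -1.87 after treatment (SE 0.20, edgeR adjusted p = 6.83e-07) and 0.45 before (SE 0.21, edgeR adjusted p = 0.106). That was a change of -2.32 (SE 0.29, edgeR adjusted p = 0.00226). Its reads were divided between transcript models in all 8 treated libraries.

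The 2 largest positive changes were at gene models called lower in S before treatment and not called after it. Gene model g42156 (2196 bases) stood at 6.02, 0.568, 8.22 and 6.22 CPM in treated S and at 6.35, 4.74, 4.23 and 2.54 CPM in treated T. Untreated S stood at 0.184, 0 and 0.0995 CPM and untreated T at 5.14, 5.92, 5.82 and 4.54 CPM. All T libraries lay between 2.54 and 6.35 CPM. Of the treated S libraries 3 of 4 reached this range or lay above it, while library 2 did not. The log2 fold change was 0.23 after treatment (SE 0.52, edgeR adjusted p = 0.767) and -5.71 before, a change of 5.94 (SE 0.98, edgeR adjusted p = 0.0199). The change of g42156 was not called without treated T library 3 (5.92), untreated S library 2 or 3 (5.40 and 5.96) or untreated T library 2 or 3 (5.89 and 5.90). Nor was it called with only the S and T libraries in the model (5.93, edgeR adjusted p = 0.112).

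Gene model g26707 (1167 bases) showed a like pattern over the libraries. It stood at 7.15, 0.524, 6.86 and 4.81 CPM in treated S and at 4.89, 4.64, 2.34 and 4.41 CPM in treated T. Untreated S stood at 0.368, 0.0498 and 0.199 CPM and untreated T at 6.57, 4.25, 4.57 and 6.51 CPM. Treated S library 2 was again the low one. The change of the log2 difference was 4.92 (SE 0.89, edgeR adjusted p = 0.0448). It was not called without treated S library 1, 3 or 4, any single treated T library, untreated S library 2 or 3, or any single untreated T library, where it lay between 4.48 and 5.03. The call of g26707 was also lost with only the S and T libraries in the model, with upper-quartile factors, with the length trend removed and with divided reads left out (edgeR adjusted p = 0.123, 0.0533, 0.0594 and 0.0547).

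Treated R was set beside these differences as another population 5 h after the same dose. Of the 8011 gene models called between treated S and treated T, the mean log2 CPM of treated R lay nearer to T in 5077 (63.4%) and nearer to S in 2934, against 56.3% nearer to T among all tested gene models. For differences beyond 2-fold, R lay nearer to T in 681 of 1017 gene models higher in S (67.0%) and in 1084 of 1462 lower in S (74.1%). R lay between S and T in 4030 of the 8011 (50.3%), beyond T in 2703 and beyond S in 1278. Over all 22627 tested gene models it lay between them in 6514 (28.8%), beyond T in 9112 and beyond S in 7001. The 8011 were chosen for a gap between S and T, and R falls between S and T more readily where that gap is wide. The 50.3% and 28.8% are therefore not shares of like sets. These counts describe 1 resistant population and carry no test.

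Gene models higher in treated than in untreated R, with the R libraries fitted alone, gave a list in whose choice no S or T library had a part. In a model of the 7 R libraries, 1288 of the 20622 gene models tested there rose. In treated S against treated T, 174 of them were higher in S and 200 lower, 29.0% of the list, against 35.4% of all tested gene models. The split moved with single libraries. It was 106 higher and 240 lower without treated S library 4, and 193 and 137 without treated S library 1. It was 172 and 169 without treated S library 2, and 152 and 139 without treated T library 3. Before treatment 22.4% of the list was called between S and T, against 31.9% of all tested gene models. The 35.4% and 31.9% are over the 22627 gene models tested with all 22 libraries. Some of those were not tested in the R model and could not enter the list, so the shares compare unlike sets. The median log2 fold change of treated S over treated T was -0.01 in the list (-0.02 with gene models at 0 counts set to their bound), against -0.00032 over all tested gene models.

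The level of this list differed more between libraries of 1 population than between S and T. The mean log2 CPM over the 1288 gene models was 2.29, 2.48, 2.71 and 3.27 in treated S libraries 1 to 4 and 2.68, 2.96, 3.13 and 2.54 in treated T libraries 1 to 4. The ranges of S and T overlapped, with S library 4 the highest of the 8 and S library 1 the lowest. Group means were 2.69 ± 0.42 in treated S and 2.83 ± 0.27 in treated T (SD, n = 4 each), and 1.80 ± 0.25 in untreated S (n = 3) and 1.89 ± 0.15 in untreated T (n = 4). All 4 treated libraries of each population lay above all of its untreated ones. Treated R, which chose the list, stood at 4.80 ± 0.78 (n = 3).

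Within this list, the largest differences between treated S and treated T were also called before treatment. Gene model g1152 (1290 bases) was at 6.68, 3.36, 10.6 and 3.81 CPM in treated S and held 5 counts in treated T, all in library 2 (0.255 CPM). Its log2 fold change was 6.49 (SE 0.97, edgeR adjusted p = 3.68e-05), and 5.70 before treatment (SE 0.90, edgeR adjusted p = 9.06e-05). Without treated T library 2 no count was left in treated T, and the fitted value of g1152 was 10.02, which then depends on the prior count. Gene model g10501 (702 bases) held 0 counts in treated S and stood at 14.3, 23.6, 33.2 and 21.7 CPM in treated T, so that S was at least 621-fold lower with its floor of 3 counts (edgeR adjusted p = 2.87e-06). Untreated S held 8 counts of g10501, and untreated T stood at 2.29 to 11 CPM, a log2 fold change of -5.30 (SE 0.98, edgeR adjusted p = 0.000663). All treated T libraries of g10501 lay above all untreated T libraries, and no treated S library held a read of it. Its reads were divided between gene models in 3 of the 4 treated T libraries, the only treated S or T libraries that held any.

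Some gene models had reads in only 1 of the sensitive populations after treatment. Of the 22627 tested, 60 gene models held at least 1 CPM in every treated S library and 0 counts in treated T. Another 86 held at least 1 CPM in every treated T library and 0 counts in treated S. Most were not abundant, with median levels where present of 2.87 CPM for the 60 and 2.99 CPM for the 86. In the untreated libraries the population without reads was again at 0 in 30 of the 60 and in 63 of the 86. These 2 counts are not alike, as untreated T had 4 libraries and untreated S 3, where 0 is reached more easily. Treated R held at least 1 count of 33 of the 60 and of 74 of the 86, and at least 1 CPM in every library of 8 of the 60 and 47 of the 86. The counts in untreated libraries and in R carry no test and are not set against all tested gene models.

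Transcript shares gave a further difference that sums over a gene model do not show. Of 2232 gene models with more than 1 transcript model, 1280 had at least 10 reads in each of the 8 treated libraries. In 87 of them (6.8%) the share of a transcript did not overlap between treated S and treated T and differed by at least 20 percentage points in the mean. The most used transcript, by mean share, differed in 45 of the 87 and in 137 of the 1280. At the level of the whole gene model 41 of the 87 (47.1%) were called, against 34.5% of the 1280. In untreated libraries 84 of the 87 had enough reads, and in 53 of these the same transcript again differed in the same direction without overlap. Ranges of 3 against 4 untreated libraries fail to overlap more easily than those of 4 against 4. No share over all gene models stands beside the 53, so it is a description. All 87 had reads that were divided between models in at least 1 treated library, as did 1186 of the 1280, so the shares rest on estimates. The plants and the population from which the transcript models were built are not stated in the sources used here.

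The largest difference in share was at g37735. Its transcript 1 (438 bases) took 100% of the reads in all 4 treated S libraries and 0%, 10.1%, 6.06% and 24% in treated T libraries 1 to 4, where transcript 2 (1206 bases) took the rest. The summed counts of g37735 came to 0.784 ± 0.365 CPM in treated S and 1.15 ± 0.379 CPM in treated T (SD, n = 4 each; edgeR adjusted p = 0.351), with 64 and 92 counts in all, so each share rests on few reads. Per transcript length the order was the other way, with mean TPM (transcript abundance scaled over effective length) of 2.46 in treated S and 0.934 in treated T, not tested. At g34004, transcript 1 (1497 bases) took 100% in all 4 treated S libraries and 0%, 49.1%, 0% and 0% in treated T, where transcript 2 (1509 bases) took the rest. T library 2 thus stood between the other T libraries and S. The summed level of g34004 also differed, at 1.98 ± 1.1 CPM in treated S and 11 ± 0.521 CPM in treated T (edgeR adjusted p = 6.4e-06, with a log2 fold change of -2.49 and an SE of 0.32). Its reads were divided between models in all 8 treated libraries.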

How the data were processed

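Per the file headers, the deposited tables hold estimated counts, TPM (transcript abundance scaled over effective length) and other columns, namely coding and effective lengths in bases, for 47916 transcript models. Per the submitters' processing notes the authors used Trimmomatic and Salmon; versions, build, strand setting and transcript set were not stated in those sources. Estimated counts were summed per gene model (45437) and rounded; TPM was used for 1 gene model only and in no test. Reads were called divided where an estimated count was not whole within 5e-04. The 22 libraries held 19.2 to 24.4 M reads.

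After filterByExpr, 22627 gene models were fitted with edgeR 4.0.16 (R 4.3.3, TMM, robust quasi-likelihood F test, Benjamini-Hochberg over all tested), with a mean for each of 6 groups over all 22 libraries. Differences beyond 2-fold were tested with glmTreat. The SE of a log2 fold change is its size over the square root of F. CPM uses TMM-scaled library sizes and log2 CPM a prior count of 2.

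Named gene models had the largest fold change, or the highest abundance with at least a 2-fold difference, among calls with at least 1 average log2 CPM and no overlap. For changes of the difference (2 per direction) and transcript shares (2) the largest were taken. Members, lists and rules were chosen with earlier results of these data known. Alternatives were RLE and upper-quartile factors, other filters, DESeq2 1.42.0, fewer libraries in the model, a replicate block, removal of divided reads or of the length trend, and leaving out each library. The scripts were tested on simulated data.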

Additional observations from a re-analysis of the deposited data

Results flagged for a closer look

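In g1152, treated T library 2 stood apart from its group at 0.255 CPM, with 0 in the other 3 libraries, and with those at 0 any read would have set it apart. The difference between S and T was not the same after and before treatment, by the edgeR test of the change, in 4 gene models described above. The change on the log2 scale was 5.94 in g42156 and 4.92 in g26707. It was -2.61 in g29452 and -2.32 in g24578.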

How the results depend on the processing

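The count of gene models called between treated S and treated T, 8011, lay between 5962 and 8820 under the other alternatives run, except that it was 3977 of 11703 tested when transcripts with divided reads were left out, which leaves fewer gene models to test. That setting also gave 1268 beyond 2-fold, 3500 between the untreated populations, 2393 called after and before in the same direction, 177 of the list raised in R and 2 changes of the difference. Leaving out single libraries gave 6654 to 7542 calls between treated S and treated T, 2133 to 2335 beyond 2-fold, 5619 to 6710 between untreated S and T, and 4167 to 4691 called both times in the same direction. For the list raised in R it gave 291 to 346 calls, for transcript shares 95 to 107, and for the change of the difference 2 to 28. The counts for transcript shares all lay above the 87 of the full set, and ranges of fewer libraries fail to overlap more easily. A list chosen beyond a 2-fold rise in R held 121 calls among 429 gene models. The change of the difference was called at 12 gene models with edgeR, 365 with DESeq2 and 1 with only the S and T libraries; the cause was not tested. Between the untreated populations, removing the length trend left 3744 higher and 3507 lower in S, and thus turned the larger direction. Of 198 values of single gene models under alternatives, 172 kept their call, 26 lost it and 0 changed sign. The 26 were all changes of the difference. With divided reads left out, g31748, g14756, g10371, g10501, g29452 and g24578 gave no value, so the 198 do not check them in that setting.

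With the replicate number as a block, the change of the difference was called at 3 gene models, and not at g42156 (5.98, edgeR adjusted p = 0.0655) or g26707 (4.91, edgeR adjusted p = 0.143). The replicate block gave 7655 calls between treated S and treated T. Same-numbered treated libraries of S and T had correlations of -0.174 to 0.268 in their deviations from the group means, over 0.1 in 2 of 4. Of the treated S libraries, 1 of 4 correlated best with its own number. For untreated libraries 1, 2 and 3 the same-numbered correlations were 0.0759, 0.150 and -0.0701. There S libraries 1 and 2 correlated best with their own number, and library 3 did not. Correlations so few and weak cannot decide whether the numbers pair the libraries. The alternatives for counts called both times, and leaving out libraries for the list raised in R, were chosen after seeing the data. At 19.2 to 24.4 M reads per library, a group at 0 counts bounds a fold and does not show absence.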
